A study of Mus musculus with 4 samples.

Results

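The 35 genes described here encode the enzymes and transporters of glycolysis and the pentose phosphate pathway, together with the transcription factor Hif1a, and were chosen by a fixed list of symbols. All 35 were found among the 55450 annotated genes of the main table. They were measured by polyA RNA-seq in inflammation-experienced regulatory T cells (Treg), CD4 T cells that restrain immune responses. Their donor was an adult male mouse, 6 months old, carrying both Foxp3CreERT2, an inducible Cre recombinase driven by the Foxp3 gene, and the Rosa26YFP reporter, and the labels trace this primary cell type to a hematopoietic cell of the bone marrow. The 4 libraries, called libraries 1 to 4, are numbered by the labels as technical replicates of biological replicate 1, so there was 1 group and no condition to compare. Every error below, and the p-value of the isoenzyme pairs, rests on the spread between these libraries, which may be technical. The p-values for differences between libraries, and the interval given for Pgls, account for counting error only. None of these values says anything about other mice.

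Glycolysis splits glucose into pyruvate in the cytosol and yields ATP and NADH, and lactate dehydrogenase recycles the NADH by turning pyruvate into lactate. The pentose phosphate pathway branches off at glucose 6-phosphate: its oxidative part makes NADPH, and its non-oxidative part interconverts sugar phosphates and supplies ribose for nucleotides. Several steps can be carried out by isoenzymes from separate genes that differ in tissue distribution, kinetics and regulation. Effector T cells are known for high aerobic glycolysis, and Foxp3 and Hif1a are known to influence glycolytic genes in opposite ways. Levels are given as TPM, in which abundance is scaled to the library and corrected for transcript length, so that genes can be set beside each other. As the RNA came from many cells at once, fewer cells with a transcript and less of it per cell cannot be told apart.

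The libraries held 6643582 to 9334677 expected counts on annotated genes, library 4 being the shallowest. All 12 Treg markers reached 10 TPM in each library, led by Trac, Cd3g and Cd3e at 3084 ± 228, 1395 ± 123 and 1385 ± 107 TPM (SD, n = 4), which all alpha-beta T cells express. Foxp3, the defining Treg factor, named here after its values were seen, stood at 20.3, 21.7, 32.8 and 36.4 TPM. Markers of other cells were present and uneven. The 11 matched erythroid markers summed to 1070, 5.43, 39.1 and 18.5 TPM in libraries 1 to 4, led by the hemoglobin genes Hba-a2 (103 ± 195), Hbb-bs (91.9 ± 168) and Hba-a1 (56.9 ± 109). The 10 B cell markers summed to 870 to 1458 TPM, led by Ighm at 1016 ± 242, Cd79b at 79.1 ± 14.8 and Cd79a at 23.6 ± 12.0. The 14 myeloid markers summed to 62.1, 19.9, 10.6 and 29.8 TPM, led by Lyz2 (10.9 ± 8.54), Tyrobp (4.64 ± 4.06) and Fcer1g (4.61 ± 3.91), and Ly6g was at 0 counts throughout. The 10 CD8 and natural killer markers summed to 149 to 241 TPM, led by Nkg7 (139 ± 34.8), Gzmb (16.6 ± 10.6) and Cd8b1 (11.7 ± 2.05). Most of this sum was Nkg7, and the median of the 10 markers was only 1.77 TPM.

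The pathway was expressed from end to end. The median member stood at 42.6 ± 6.81 TPM (SD of library medians, n = 4), against 0.663 for all 21938 nuclear protein-coding genes and 6.28 for the 15849 of them with any signal. Of the 35 members, 24 reached 10 TPM in all 4 libraries, where 28.1% of nuclear protein-coding genes did. The 10 members at 100 TPM or more in every library were Gpi1, Pfkp, Aldoa, Gapdh, Pgk1, Eno1, Pkm, Ldha, Tkt and Taldo1. Aldoa, Ldha, Pkm, Eno1 and Gapdh made up 64.0% of the members' summed TPM, and all members together made up 0.592 ± 0.0679% of nuclear protein-coding TPM. The 9 members with a mean under 10 TPM were Hk2, Hk3, Pfkm, Pfkfb2, Pfkfb4, Aldoc, Slc16a1, Slc16a3 and Rpia, which apart from Rpia and the transporters are the minor isoenzymes of their step.

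**Figure D1:**
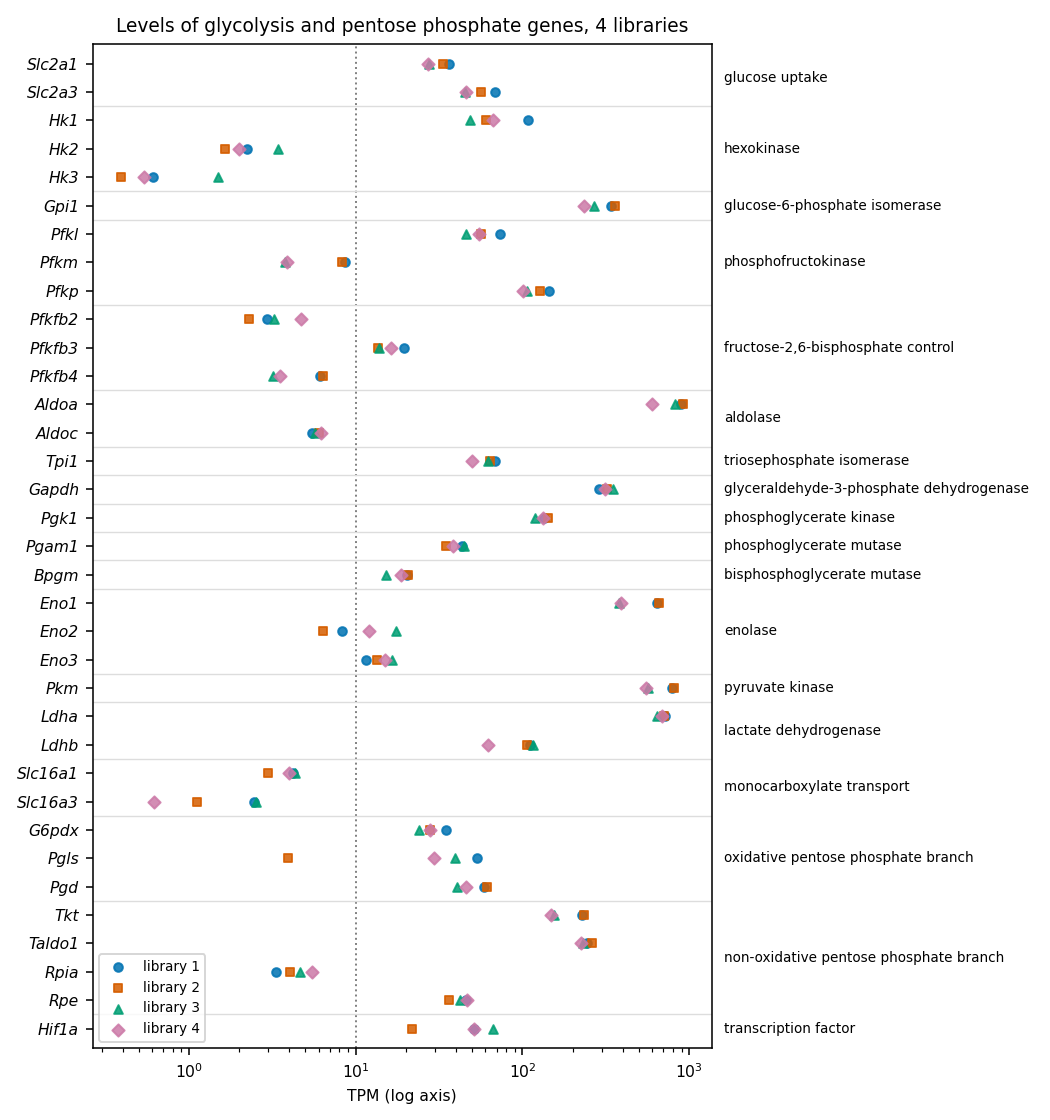
TPM of each of the 35 members on a log axis, with 1 symbol per library (libraries 1 to 4) and the members grouped by the step named at the right. The dotted line marks 10 TPM, which 24 members reached in all 4 libraries. Aldoa had the highest mean, 808 TPM, Hk3 the lowest, 0.760 TPM, and the library 2 symbol of Pgls stands far left of the other 3.

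Pyruvate kinase, which makes pyruvate and ATP from phosphoenolpyruvate, was represented by Pkm (ENSMUSG00000032294.17, chromosome 9, 59656368 to 59679375, plus strand of mm10) at 786, 806, 565 and 547 TPM in libraries 1 to 4, a mean of 676 ± 139. Pklr, which encodes the liver and red cell enzyme, had 0 counts in all 4 libraries. Pkm transcripts carry one of a pair of mutually exclusive exons. The M1 exon gives a constitutively active enzyme typical of muscle and brain, and the M2 exon gives an allosterically regulated enzyme typical of proliferating cells. The exons are shown because the choice between them was estimated from the levels of the whole transcripts that carry them. They have the same length of 167 bases and differ at 64 positions, which are in capitals, so that 61.7% of bases are identical and reads can tell them apart. The M1 exon lies at chr9:59675029-59675195 and the M2 exon downstream at chr9:59675568-59675734, both on the plus strand.
Pkm M1 exon: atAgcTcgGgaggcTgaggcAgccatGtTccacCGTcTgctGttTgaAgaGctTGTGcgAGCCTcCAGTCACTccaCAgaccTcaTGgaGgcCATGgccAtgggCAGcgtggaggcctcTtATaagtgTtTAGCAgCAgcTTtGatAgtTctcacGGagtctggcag
Pkm M2 exon: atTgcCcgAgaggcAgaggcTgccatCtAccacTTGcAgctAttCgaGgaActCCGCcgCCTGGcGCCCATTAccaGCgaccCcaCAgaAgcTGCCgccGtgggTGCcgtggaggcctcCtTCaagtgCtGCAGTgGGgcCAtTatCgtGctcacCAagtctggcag
The M2 exon belonged to 1 annotated transcript, Pkm-201, and the M1 exon to 1, Pkm-202. The retained-intron transcript Pkm-203, at 8.34 TPM, also covers the M1 exon without ending at its borders and was not counted. Pkm-201 stood at 687, 699, 523 and 508 TPM and Pkm-202 at 38.7, 37.4, 22.2 and 27.9 TPM. The M2 exon thus made up 94.7%, 94.9%, 95.9% and 94.8% of the TPM of transcripts with either exon, 95.1 ± 0.572%, and every library gave nearly the same share although the Pkm level varied. By counts instead of TPM the share was 95.9 ± 0.481%, and in the table of transcripts quantified straight from reads (the read-based table) 93.7 ± 0.699%. The 2 transcripts also differ at their ends, so the share rests on the authors' assignment of reads to whole transcripts and not on the exons alone. Of the total Pkm TPM, Pkm-201 took 89.9 ± 3.25%.

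Glucose enters through Slc2a1 (GLUT1) and Slc2a3 (GLUT3), the facilitative transporters of most tissues and of neurons and leukocytes. Slc2a3 (chromosome 6, 122727809 to 122801640) stood at 68.8, 56.8, 45.0 and 45.7 TPM and Slc2a1 (chromosome 4, 119108711 to 119137983) at 36.2, 33.5, 27.6 and 27.3 TPM. Slc2a3 was higher in each library, with a log2 ratio of 0.78 ± 0.10, and took 63.3 ± 1.57% of their summed TPM. From the counts on the older GENCODE M4 annotation, scaled by length, the ratio was 0.08 ± 0.18, so the 2 transporters did not differ beyond their spread in that table. Of the Slc2a1 TPM, 55.5 ± 5.71% came from protein-coding transcripts, and the nonsense-mediated decay transcript Slc2a1-204 led in the read-based table with 57.7%.

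Hexokinase, which traps glucose by phosphorylation, was almost only Hk1, the ubiquitous isoenzyme, in all 4 libraries. Hk1 (chromosome 10, 62268855 to 62379908) stood at 108, 60.8, 48.7 and 66.6 TPM, and library 1 was the highest. Hk2, the inducible isoenzyme of activated cells and muscle, stood at 2.22, 1.64, 3.41 and 2.01 TPM. Hk3, known from myeloid cells, stood at 0.61, 0.39, 1.5 and 0.54 TPM from 7 to 12 counts a library. The log2 ratio was 4.86 ± 0.75 for Hk1 over Hk2 and 6.46 ± 1.04 for Hk1 over Hk3, and Hk1 took 95.3 ± 3.03% of the summed TPM. Library 1, where Hk1 was highest, was also the library with 1070 TPM of erythroid markers and the most myeloid markers. The part of those cells in the Hk1 level was not tested. In the read-based table the leading Hk1 transcript was Hk1-201 with 47.2%, where the main table had Hk1-202 with 68.0%.

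Gpi1, which isomerises glucose 6-phosphate to fructose 6-phosphate (chromosome 7, 34201330 to 34230336), stood at 339, 359, 269 and 233 TPM, a mean of 299.9 ± 59.2. Libraries 1 and 2 were the higher and library 4 the lowest. Protein-coding transcripts made up 47.6% of its TPM, the leading one being Gpi1-201 with 47.1 ± 8.51%, and the nonsense-mediated decay transcript Gpi1-207 took 34.3%.

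Phosphofructokinase, the committed step, was represented by 3 genes at well separated levels. Pfkp, the platelet-type subunit (chromosome 13, 6579768 to 6648777), stood at 145, 128, 107 and 100.3 TPM. The liver-type Pfkl (chromosome 10, 77986947 to 78010083) stood at 73.4, 56.4, 46.0 and 54.7 TPM. The muscle-type Pfkm stood at 8.58, 8.26, 3.75 and 3.88 TPM. The order was the same in each library, and the subunits took 65.4 ± 2.38%, 31.3 ± 2.52% and 3.23 ± 0.958% of the summed TPM. The log2 ratio was -1.06 ± 0.16 for Pfkl over Pfkp and 3.30 ± 0.47 for Pfkl over Pfkm.

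The bifunctional enzymes that set fructose 2,6-bisphosphate, the activator of phosphofructokinase, were all low. Pfkfb3, the isoform of proliferating cells with the highest kinase activity, led at 19.5, 13.6, 13.8 and 16.4 TPM. Pfkfb4 stood at 6.14, 6.40, 3.19 and 3.52 TPM and Pfkfb2 at 2.93, 2.30, 3.25 and 4.69 TPM. The log2 ratio of Pfkfb3 over Pfkfb4 was 1.75 ± 0.51. Pfkfb1, the liver isoform, stood at 5.34 ± 1.23 TPM, close to Pfkfb4.

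Aldolase was almost only Aldoa, the member of highest level. Aldoa (chromosome 7, 126795234 to 126800751) stood at 888, 923, 822 and 600.4 TPM, lowest in library 4. Aldoc, the brain isoenzyme, stood at 5.51, 6.06, 5.73 and 6.21 TPM. The log2 ratio of Aldoa over Aldoc was 7.06 ± 0.33, the largest of the 11 pairs on this scale; without length correction it was 7.04, below the 7.41 of Hk1 over Hk3.

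Tpi1, which interconverts the 2 triose phosphates, stood at 68.1, 64.3, 62.6 and 50.1 TPM, a mean of 61.3 ± 7.79. Gapdh, which oxidises glyceraldehyde 3-phosphate and makes NADH (chromosome 6, 125161715 to 125166467), stood at 286, 321, 351 and 315 TPM, a mean of 318 ± 26.5. Pgk1, which makes the first ATP of the payoff phase (chromosome X, 106187100 to 106203699), stood at 134, 143, 119 and 133 TPM. The library spread of these 3 genes was small beside the distance between them: Gapdh was above Pgk1 and Pgk1 above Tpi1 in each library. In the scaled M4 counts Pgk1 and Tpi1 did not separate, at 66.8 ± 5.64 and 61.2 ± 7.44, and library 3 had the reverse order. Pgk2, the testis isoenzyme of Pgk1, had 0 counts.

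Pgam1, the phosphoglycerate mutase of most tissues, stood at 43.2, 34.9, 44.8 and 38.4 TPM, a mean of 40.3 ± 4.53. Bpgm, which makes 2,3-bisphosphoglycerate and is abundant in red cells, stood at 20.2, 20.7, 15.2 and 18.6 TPM. Erythroid markers summed to 1070 TPM in library 1 and to 5.43 TPM in library 2, whose Bpgm levels were nearly equal, and their part in the Bpgm level was not tested.

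Among the listed genes, enolase was mostly Eno1. Eno1 (chromosome 4, 150236721 to 150248879) stood at 641, 656, 381 and 389.5 TPM, high in libraries 1 and 2 and low in 3 and 4. Eno2, the neuronal isoenzyme, ran the other way at 8.27, 6.37, 17.5 and 12.1 TPM, and Eno3, the muscle isoenzyme, stood at 11.5, 13.4, 16.5 and 15.0 TPM. The log2 ratio was 5.59 ± 1.05 for Eno1 over Eno2 and 5.15 ± 0.64 for Eno1 over Eno3. Eno1 took 94.8 ± 2.62% of the summed TPM of these 3 genes, with 97.0%, 97.1%, 91.8% and 93.5% in libraries 1 to 4. Eno1b, a near-identical copy of Eno1 described below, was given 356, 367, 219 and 204 TPM and is not in that sum.

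Lactate dehydrogenase, which turns pyruvate into lactate, was represented mainly by Ldha, the subunit that favours lactate formation. Ldha (chromosome 7, 46841475 to 46855627) stood at 714, 708, 641 and 686 TPM, a mean of 687 ± 32.9, the second highest member and one of the steadiest. Ldhb, the subunit that favours pyruvate (chromosome 6, 142490249 to 142507957), stood at 111, 107, 116 and 61.9 TPM, with library 4 well below the other 3. The log2 ratio was 2.83 ± 0.44, or 2.62 ± 0.14 without library 4, and Ldha took 87.4 ± 3.02% of the summed TPM. Ldhc, the testis subunit, had 0 counts. The lactate exporters were low in comparison. Slc16a1 (MCT1) stood at 4.22, 2.98, 4.34 and 3.99 TPM and Slc16a3 (MCT4), the exporter of highly glycolytic cells, at 2.46, 1.12, 2.54 and 0.62 TPM. Slc16a1 was higher in each library, but the log2 ratio of 1.34 ± 0.83 was less than 2 SD from 0.

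**Figure D2:**
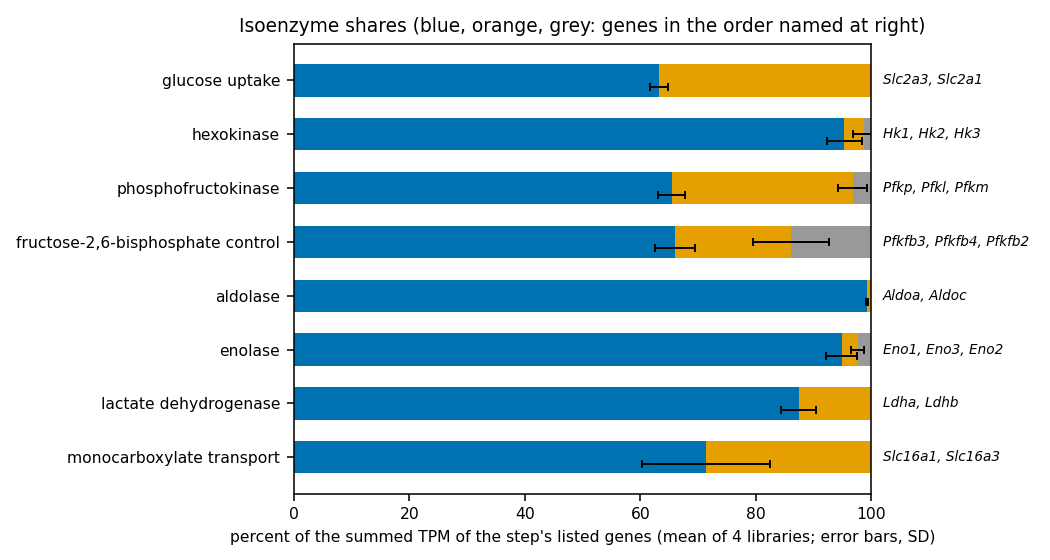
Share of each gene in the summed TPM of its step, in percent, as the mean of 4 libraries with SD as error bars at the inner borders of the bars. Blue, orange and grey stand for the genes in the order named at the right of each bar. Aldoa, Hk1 and Eno1 took 99.3%, 95.3% and 94.8% of their steps, while glucose uptake, phosphofructokinase and monocarboxylate transport were divided more evenly.

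Over the 11 isoenzyme pairs, every log2 ratio, taken on TPM + 0.1, had 1 sign in all 4 libraries, and 10 of 11 were more than 2 SD from 0. The two-sided exact sign-flip permutation test cannot give less than p = 0.13 with 4 libraries, so no pair could be called and all 11 had that p, 0.13 after Benjamini-Hochberg adjustment. Coding sequences of the pairs were 53.9% (Slc16a1 and Slc16a3) to 77.0% (Eno1 and Eno3) identical over their alignment.

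The oxidative pentose phosphate branch was led by Pgd, which makes ribulose 5-phosphate and NADPH, at 58.8, 61.7, 40.6 and 46.1 TPM. G6pdx, the rate-limiting dehydrogenase that opens the branch, stood at 34.96, 27.8, 23.8 and 27.9 TPM. Pgls, the lactonase between them (ENSMUSG00000031807.10, chromosome 8, 71592176 to 71601092), stood at 53.6, 3.94, 39.5 and 29.3 TPM. Library 2 was far below the other 3 in Pgls alone of this branch. It held 30 expected counts of Pgls (95% exact Poisson interval 20.2 to 42.8, for counting error only), against 283, 221 and 118 in libraries 1, 3 and 4. The drop was present in each quantification: the M4 counts were 518, 59, 445 and 252, and the read-based table gave 345, 55, 302 and 180.

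The non-oxidative branch had the higher summed TPM, mostly from Taldo1 and Tkt. Taldo1, transaldolase (chromosome 7, 141392199 to 141402968), stood at 245, 262, 229 and 223 TPM and Tkt, transketolase (chromosome 14, 30548359 to 30574720), at 226, 235, 154 and 148 TPM. The isomerising enzymes of ribulose 5-phosphate were lower: Rpe stood at 45.7, 36.2, 42.0 and 46.4 TPM and Rpia at 3.33, 4.06, 4.62 and 5.51 TPM. The summed TPM of the 4 genes of the branch was 478 ± 59.6 against 112 ± 24.0 for the 3 genes of the oxidative branch. The ranges did not overlap, at 424 to 538 and 93.5 to 147 TPM. Taldo1 and Tkt took 50.5% and 39.5% of the first sum, while the mean of Rpia was below that of each oxidative gene. In the main table Tkt was the only member of at least 10 TPM whose leading transcript is not annotated as protein-coding, while in the read-based table this also held for Slc2a1 and Eno2. Tkt-209, a processed transcript, took 68.3%, 68.1%, 65.1% and 73.6% of the Tkt TPM, and the protein-coding transcripts together took 10.2%. In the read-based table Tkt-209 also led, with 53.9 ± 2.33%. The 1 of 26 members with such a leading transcript stood beside 13.6% of 6864 nuclear protein-coding genes of that level. Below 10 TPM, Hk2, Hk3 and Pfkfb2 also had a leading transcript that is not protein-coding.

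Hif1a, the oxygen-regulated factor that drives many glycolytic genes (chromosome 12, 73901375 to 73947530), stood at 51.1, 21.8, 66.4 and 51.6 TPM, lowest in library 2. Its protein is known to be controlled mainly by degradation, which RNA does not show. Of 16 other genes listed with it, 6 reached 10 TPM in all libraries (28.1% of nuclear protein-coding genes did). In the test described below, 7 of the 14 tested differed between libraries, beside 68.6% of all genes tested. Bnip3l, a mitophagy receptor gene, led at 431 ± 35.6 TPM. It was followed by Myc, a separate transcription factor kept in this list, at 109 ± 22.5. Arnt, which encodes the partner subunit of Hif1a, came next at 29.1 ± 3.99.

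Between libraries, 30 of the 34 members with a mean count of at least 10 differed in their share of counts in a likelihood ratio chi-square test on a Poisson model with TMM-scaled library sizes (adjusted p below 0.05, Benjamini-Hochberg over 13036 genes). Over all genes tested 68.6% were called, so most genes varied beyond counting error. The test detects smaller differences at higher counts, and the members were not matched with other genes of like count. Of the members, 7 were called with a span of at least 2-fold between the highest and lowest library, beside 16.0% of all genes. They were Hk2, Pfkm, Pfkfb4, Aldoc, Eno2, Pgls and Hif1a. For Aldoc the units disagreed: its scaled counts spanned 2.38-fold, with 25 counts in library 4, while its TPM spanned 1.13-fold. The median span was 1.65-fold over members and 1.49-fold over all genes. Pgls had the widest span, 9.24-fold (adjusted p = 9.4e-51 in that test), followed by Hif1a with 2.72-fold (adjusted p = 8.1e-121). Pfkfb2, Pgam1, Slc16a1 and Slc16a3 were not called (adjusted p = 0.095, 0.31, 0.23 and 0.16 in the same test), and Hk3 was too low to be tested. Some calls rested on 1 library: those of Aldoc, Tpi1, Ldhb, Rpia and Rpe were lost without library 4 (adjusted p = 0.41, 0.15, 0.59, 0.11 and 0.45 in that test), those of Pfkfb3, Eno3 and Rpia without library 1 (0.13, 0.53 and 0.47), those of Hk2 and Eno3 without library 3 (0.26 and 0.094), and that of Taldo1 without library 2 (0.4).

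Which library held the highest level of a member depended on the unit. On TMM-scaled counts it was library 2 for 18 of the 34 members, where 27.7% of all genes peaked in that library, library 1 for 7 (26.3% of all genes), library 3 for 6 (21.5%) and library 4 for 3 (24.5%). By TPM, an alternative chosen after seeing the data, it was library 2 for 10 members (15.5% of all genes), library 1 for 11 (33.0%), library 3 for 9 (26.8%) and library 4 for 4 (24.7%). Gpi1, Aldoa, Pgk1, Eno1 and Pkm peaked in library 2 by both units. Tpi1 and Ldha peaked in library 2 on scaled counts and in library 1 by TPM, and Gapdh in library 2 and library 3. By both units Hif1a and Pgls were lowest in library 2 and Hk2, Eno2 and Eno3 peaked in library 3. Library 2 had the lowest erythroid sum, 5.43 TPM, and B cell markers of 1104 TPM, within the range of the other libraries. Whether cell composition bears on these differences was not tested.

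**Figure D3:**
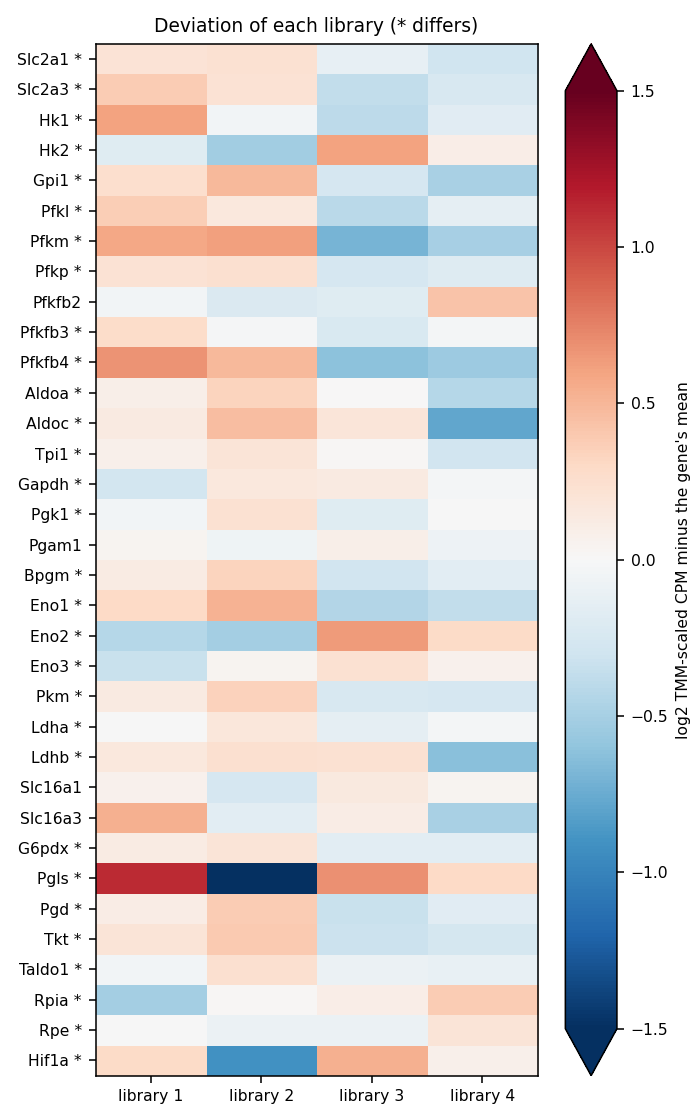
Log2 of the TMM-scaled CPM of each library minus the mean of the gene, for the 34 members tested, red above and blue below the mean, with the colour scale ending at 1.5 in each direction. An asterisk marks the 30 members that differed between libraries. Pgls in library 2 lies beyond the scale, and Eno1, Pkm, Gpi1 and Aldoa are red in library 2 and blue in library 4.

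Several members have near-identical copies elsewhere in the genome, to which reads may also be assigned. By a BLAST search, 11 members had 214 pseudogene or retrogene copies of at least 90% identity over at least 200 bases, 173 of them copies of Gapdh. Pgam1 (chr19:41911923-41918660) shows how close such copies can be. Its whole coding sequence is found without a difference in the pseudogene Pgam1-ps2 (chr7:27469771-27470535, minus strand of mm10), and the first 150 coding bases of each are given to show it.
Pgam1: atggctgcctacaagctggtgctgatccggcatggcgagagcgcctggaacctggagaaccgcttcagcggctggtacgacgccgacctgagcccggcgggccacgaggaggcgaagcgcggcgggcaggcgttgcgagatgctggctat
Pgam1-ps2: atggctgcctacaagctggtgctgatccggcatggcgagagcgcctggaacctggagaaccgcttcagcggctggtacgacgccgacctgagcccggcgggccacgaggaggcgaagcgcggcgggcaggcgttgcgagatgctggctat
A read that lies wholly within such a stretch fits both genes. In the main table, whose expected counts need not be whole, Pgam1 had 485, 441, 525 and 329 expected counts and Pgam1-ps2 8.79, 11.4, 13.8 and 10.6. In the M4 counts Pgam1 had 77, 83, 73 and 72, a scaled level 0.149 times the main TPM.

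Adding the reads of all copies to their parent, an alternative chosen after seeing the data, moved the mean TPM by over 1 SD in 3 of the 11 members. Eno1b, a retrogene 99.5% identical to Eno1 over 1736 aligned bases, was given 356, 367, 219 and 204 TPM in the main table. This was 35.6 ± 0.917% of the sum of both there, in a nearly fixed proportion. By counts it was 32.7 ± 0.935% in the main table and 33.6 ± 1.34% in the read-based table. The part was far smaller in the M4 counts, where Eno1b had 667, 747, 504 and 294 and Eno1 7903, 9037, 5108 and 3802. With all copies added in the main table, Eno1 stood at 818 ± 248 TPM, Gapdh at 396 ± 38.4 and Pgk1 at 159 ± 8.79. Copies held 18.3 ± 0.872% of the Gapdh family's expected counts in the main table and 33.2 ± 2.40% in the read-based table. Gapdh itself had 1940, 2564, 2711 and 1694 expected counts in the main table, 3648, 4644, 4919 and 3025 M4 counts, and 5173, 6769, 8009 and 4646 in the read-based table. Pgk1 has a copy identical over 1252 aligned bases and lay at 0.505 times its main level in the M4 counts. Pgam1, which has copies, lay at 0.149 times. Pfkfb2, Hk2 and Rpia, for which no copy was found, lay at 0.220, 0.395 and 0.439 times. Their M4 counts were 12 to 22, 15 to 31 and 19 to 34 a library. The part of the copies in the M4 levels was not tested.

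Over all members, the scaled M4 level was more than 1.5 times off the main TPM in 15, 9 of them lower and 6 higher. Among the 26 members with a mean of at least 10 TPM this held for 10, where it held for 39.8% of 6809 nuclear protein-coding genes of that level. The read-based table was more than 1.5 times off in 1 of the 26, Gapdh at 1.71 times, beside 3.44% of 6864 genes, and also in Rpia at 1.72 times. Gapdh was the only one of the 26 members above its main level in that table, whose levels had a median of 0.820 times the main TPM in these members and 0.884 times over all such genes.

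**Figure D4:**
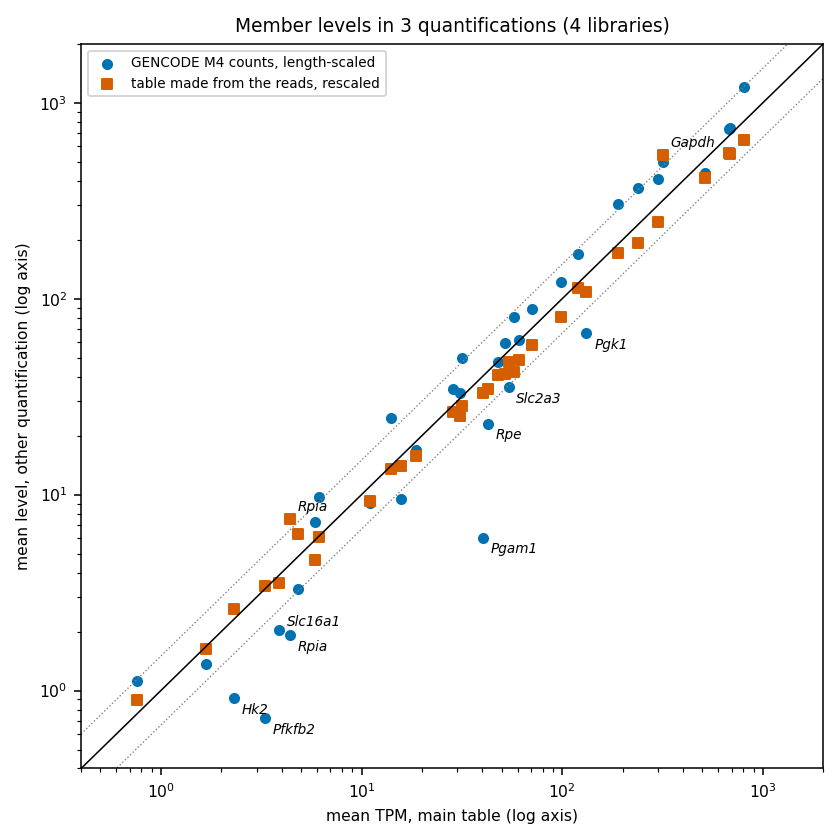
Mean level of each of the 35 members in the main table (x axis, TPM) against the scaled M4 counts (blue circles) and the rescaled read-based table (orange squares), on log axes, as means of 4 libraries. The solid line marks equal levels and the dotted lines 1.5 times above and below. Pgam1 lies farthest below the lines in the M4 counts and Gapdh above them in both.

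Of 21 other isoenzymes and sugar or lactate transporters of these steps, none reached 10 TPM in all libraries, and 3 of the 6 tested differed between libraries by the test above, beside 68.6% of all genes. Adpgk, an ADP-dependent glucokinase, was the highest at 7.45 ± 2.45 TPM, followed by Pfkfb1 and by H6pd, which starts a pentose phosphate route in the endoplasmic reticulum, at 4.25 ± 0.502. Hkdc1, Pgk2, Pklr, Ldhc, Slc16a8, G6pd2 and Tktl2 had 0 counts in every library, which allows up to 3 counts, or 0.321 to 0.452 CPM depending on the library. Of 24 genes of linked steps of glucose and pyruvate use, 13 reached 10 TPM in all libraries, beside 28.1% of nuclear protein-coding genes, with a median of 16.4 TPM. Of the 20 tested, 15 differed, a share near the 68.6% of all genes. Txnip, an inhibitor of glucose uptake and of thioredoxin, led at 309 ± 32.5 TPM, followed by the mitochondrial pyruvate carrier gene Mpc1 at 147 ± 10.1 and the pyruvate dehydrogenase subunit gene Pdha1 at 141 ± 17.9.

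Promoter sequences were searched for ACGTG on both strands (ACGTG or CACGT), in the 250 bases before each RefSeq start on GRCm38.p6. ACGTG is a form of the core of the element bound by hypoxia-inducible factors, and the other form, GCGTG, was not searched. The letters ACGTG overlap with those of the E-box CACGTG, which holds a match on each strand. RefSeq windows were found for 34 of the 35 members, all but Slc2a3. The letters occurred in 18 of 49 member windows (36.7%) and in 16.6% of all 32851 windows of the same length. A match is a description of the sequence and not a binding site. The windows of Ldha and Ldhb are shown as the isoenzyme pair of this step and that of Pgk1 as a single-gene step, with matches in capitals: 5 in Ldha (chr7:46845554-46845803, plus strand), none in Ldhb (chr6:142507958-142508207, minus strand) and 2 in Pgk1 (chrX:106186850-106187099, plus strand). Of the 2 Ldha windows the one with the most matches was taken, and the other had 0, as Ldhb did.
Ldha upstream: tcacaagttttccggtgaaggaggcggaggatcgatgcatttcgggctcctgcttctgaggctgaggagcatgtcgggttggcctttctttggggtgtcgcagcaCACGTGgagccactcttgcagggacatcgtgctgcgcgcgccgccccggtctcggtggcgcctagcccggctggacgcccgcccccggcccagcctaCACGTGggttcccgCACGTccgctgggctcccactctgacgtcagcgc
Ldhb upstream: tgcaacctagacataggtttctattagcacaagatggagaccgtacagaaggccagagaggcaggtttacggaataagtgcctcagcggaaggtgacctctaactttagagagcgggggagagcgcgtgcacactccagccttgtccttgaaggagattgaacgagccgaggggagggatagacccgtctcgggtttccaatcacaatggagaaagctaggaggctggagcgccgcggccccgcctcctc
Pgk1 upstream: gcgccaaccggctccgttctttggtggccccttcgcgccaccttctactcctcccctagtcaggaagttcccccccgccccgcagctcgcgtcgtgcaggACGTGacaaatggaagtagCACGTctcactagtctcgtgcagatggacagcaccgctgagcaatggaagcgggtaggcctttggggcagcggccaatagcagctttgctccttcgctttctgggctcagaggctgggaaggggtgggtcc
Eno1, Gapdh, Tpi1, Gpi1 and Tkt, which are also among the expressed members, had no ACGTG or CACGT in these windows. GCGTG was not searched in them, and the Ldhb window shown, without a match, holds it.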

How the data were processed

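The 4 polyA RNA-seq libraries of inflammation-experienced Treg form 1 group and are numbered by technical replicate. Genes and lists were chosen with earlier results of these data known. The main tables give the authors' deposited expected counts and TPM per gene and per transcript on mm10 with GENCODE M21, per the file headers and the notes beside the files. The deposited transcript table also gives each transcript's percent of its gene, per the file headers. The deposited table made from the reads (the read-based table) gives estimated counts and TPM per transcript, per the file headers. The deposited whole-number counts per gene use GENCODE M4, per the notes beside the files. The sources used here do not give the programs or the strand setting, so reads of overlapping antisense genes may be shared. Rows outside the gene annotation held 0.199% to 0.576% of expected counts and were left out.

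Expected counts were rounded before testing. Counts were tested for differences between libraries with a Poisson likelihood ratio test (mean count at least 10, TMM from edgeR 4.0.16, R 4.3.3, Benjamini-Hochberg at 0.05). It covers counting error only, so its p-values do not describe replicates of a condition. It was tested on simulated counts drawn from the same Poisson model, with changes planted in some genes and no other spread between libraries. That simulation cannot show how the test behaves where libraries vary beyond counting error. Isoenzyme pairs were compared as log2(TPM + 0.1) ratios, which understate differences of low genes. M4 counts were divided by effective length (at least 50 bases) and scaled to the same total. TPM from the reads was summed per gene and rescaled to the same nuclear protein-coding total. Copies came from BLAST 2.17.0, coding identities from Biopython 1.88. DESeq2 1.42.0 gave alternative size factors. Depth was 6643582 to 9334677 expected counts. The text names all 35 members, the 3 highest genes of each other list, other isoenzymes at 0 counts in every library, and defining markers at 0. A further isoenzyme, outside the counts given for that list, is not reported here. The alternatives tried are in the closing section. Steps ran in Python 3.11.15 (pandas 2.3.3, numpy 2.4.6), and matplotlib 3.10.9 drew the figures.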

Additional observations from a re-analysis of the deposited data

Results flagged for a closer look

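Of 82 sets of 4 library values examined (member levels, isoenzyme ratios, leading transcript shares and the list median), 5 had 1 library far from the other 3 by Dixon's criterion, and chance alone flags about 1 in 20 such sets. Ldhb stood at 61.93 TPM in library 4, below the 107 to 116 TPM of the others, and its call between libraries was lost without library 4 (adjusted p = 0.59 in the likelihood ratio test). The other 4 were shares of transcripts within a gene. Gapdh-202 took 0.337% of the Gapdh TPM in library 4 against 64.6% to 73.8% in the others, where Gapdh-201, also protein-coding, took 69.1% instead, while the read-based table gave Gapdh-202 84.8 ± 0.413% over the 4 libraries. Aldoc-202 took 12.7% of the Aldoc TPM in library 4, from a gene with 25 counts there, and Aldoc-206, a processed transcript, took 70.2%. Eno3-201 took 96.6% of the Eno3 TPM in library 4 against 20.8% to 26.1% in the others. Rpia-201 took 73.6% of the Rpia TPM in library 2 against 78.1% to 78.8%. Library 4, where 4 of the 5 values fell, was the shallowest, and the part of depth in these shares was not tested. Pgls in library 2 and Hif1a in library 2 did not meet the criterion, although both were the lowest of 4.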

How the results depend on the processing

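The median member stood at 35.4 TPM-scaled units from the M4 counts, 34.5 in the rescaled read-based table and 53.7 when TPM was rescaled over nuclear protein-coding genes, against 42.6, and at 41.3 to 44.7 with 1 library left out. The leading transcript's share of the Pkm TPM was 84.6% in the read-based table and 93.8% by expected counts, against 89.9%, and 88.9% to 90.9% with 1 library left out. The number of members at 10 TPM in all libraries was 22 to 26 and the number that differed between libraries 25 to 30 under the alternatives run. None of 99 recomputed isoenzyme ratios changed sign as a mean over libraries. With 1 library left out or a pseudocount of 1 none could, as each pair had 1 sign in all 4 libraries. By library, the scaled M4 counts put Slc2a3 below Slc2a1 in library 3 (27.1 against 30.6). They put Slc16a1 below Slc16a3 in library 1 (2.36 against 2.58). Of the 99 ratios, 9 moved over 1.5 times. These were, from the M4 counts, 0.08 for Slc2a3 over Slc2a1, 6.42 for Hk1 over Hk2 and 4.11 for Eno1 over Eno3. With a pseudocount of 1, Hk1 over Hk3 was 5.33. Without length correction it was 7.41, Pfkfb3 over Pfkfb4 2.66 and Slc16a1 over Slc16a3 2.36. With copies added to the parent, Eno1 over Eno2 was 6.25 and Eno1 over Eno3 5.81. Besides the calls that rested on 1 library, the likelihood ratio test on the M4 counts lost Hk2, Rpia and Rpe (adjusted p = 0.16, 0.65 and 0.22) and gained Slc16a3 (adjusted p = 6.6e-07), and without the filter on low counts it lost Rpia (adjusted p = 0.056). Member levels moved by over 1 SD in 21 of 35 members from the M4 counts and in 14 from the reads. The cause was not tested. No paired analysis was possible because there is 1 group. Depth limits Hk3 and Slc16a3, which had 7 to 12 and 12 to 33 counts a library.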
